A study of Drosophila melanogaster with 2 samples.

Results

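Polycomb-group genes of Drosophila melanogaster were examined for binding of Oaz, a multi-zinc-finger protein, in chromatin immunoprecipitation followed by sequencing. The 10 genes were ph-p, ph-d, Pc, Psc, Su(z)2, Sce, E(z), esc, Scm and RYBP, out of 13968 protein-coding genes on the chromosome arms. They were chosen by name with earlier results of these peak lists in view, and their peaks were chosen by position. A peak was taken when its summit lay in the gene body or 10 kb to each side, in the authors' list made from both replicates. By this rule 17 of the 2772 arm peaks were taken. The values below therefore describe the genes, and no test was made on them. Whole embryos aged 0 to 24 hours from 1 Oaz-GFP strain were used, which carry Oaz fused to eGFP, and the precipitation was done with an antibody to GFP, although another label gives Oaz as the antibody. There was 1 group of 2 biological replicates, both from the same strain, with no second condition. Which cells of the embryo a peak comes from cannot be told, and the labelled stage could not be checked against marker genes in peak lists.

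Polycomb-group proteins keep developmental genes silent through cell division. They act in complexes: Polycomb repressive complex 2 (PRC2) methylates lysine 27 of histone H3, and Polycomb repressive complex 1 (PRC1) binds this mark and ubiquitinates histone H2A. In flies both are brought to DNA at Polycomb response elements, and the Hox genes are their classical targets.

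The signal is the value that the authors' peak caller gave each peak, and its scale is not stated. Ranks are by signal among all 2846 listed peaks. The signals of the 2 replicate lists are given beside that of the list of both replicates, which is not on their scale. Positions are 1-based on dm6. Read depth was not analysed here, so no counting error can be given for a signal, and the difference between replicates is the only error shown.

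Peak sequences are shown for 4 of the genes' windows, on the plus strand of the RefSeq Release 6 genome (dm6). The strongest ph-p peak can thus be set beside weaker ones in the windows of related genes. The peak in the Pc window lay at the start of another gene, CG11309. Capitals mark the 21 bases centred on the summit. The first is the whole strongest ph-p peak, in an intron. The next holds the summit of the peak upstream of ph-d with 100 bases to each side. After it comes the part of the peak in the Pc window that lies outside annotated untranslated sequence, and the last is the stretch of 65 intron bases that holds the summit at the start of E(z).
ph-p intron, chrX:2137217-2137485: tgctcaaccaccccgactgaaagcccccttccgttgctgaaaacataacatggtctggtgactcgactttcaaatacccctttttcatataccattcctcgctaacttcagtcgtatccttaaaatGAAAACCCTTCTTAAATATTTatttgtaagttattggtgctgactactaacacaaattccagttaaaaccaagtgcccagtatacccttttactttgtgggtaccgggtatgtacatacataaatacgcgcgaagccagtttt
ph-d upstream, chrX:2123983-2124183: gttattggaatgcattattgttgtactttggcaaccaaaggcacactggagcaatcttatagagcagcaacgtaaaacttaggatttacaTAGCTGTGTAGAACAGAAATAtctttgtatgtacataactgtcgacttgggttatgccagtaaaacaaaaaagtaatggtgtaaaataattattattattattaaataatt
Pc window, chr3L:21304471-21304608: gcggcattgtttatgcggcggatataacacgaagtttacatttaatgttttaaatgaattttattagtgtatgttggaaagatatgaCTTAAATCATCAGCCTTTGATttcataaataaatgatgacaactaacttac
E(z) start, chr3L:10637977-10638041: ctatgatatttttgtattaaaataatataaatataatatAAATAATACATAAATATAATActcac
The intron stretch of E(z) held 10.8% G and C, against 40.5% for the ph-p intron peak. These 2 stretches are of unlike length. With 100 bases to each side of the summit, the values were 23.9% at E(z) and 36.8% at ph-p. The other 2 sequences held 29.7% in the Pc window and 30.8% upstream of ph-d.

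Peak summits lay in the windows of 8 of the 10 genes, and they were unevenly shared out. Of all protein-coding genes, 47.9% had a summit in a window of this kind. This share and those below stand beside the counts as background only, since the genes were chosen with these peaks known. The windows of ph-p, Psc and RYBP held 4 summits each, where 2.41% of protein-coding genes had 4 or more. The E(z) window held 2 summits, those of ph-d, Pc, Su(z)2 and Scm held 1 each, and those of Sce and esc held none. The peak between ph-d and ph-p lay in both of their windows and was counted once. At 4 of the 10 genes (ph-p, RYBP, Psc and Pc) the window had a peak among the 100 strongest of the list, as 3.41% of protein-coding genes did. This limit of 100 was set after the values were seen. Windows of neighbouring genes overlap, so a peak counts for several genes in these percentages. The median window was 25.9 kb for the 10 genes and 22.2 kb for all protein-coding genes. Per Mb of sequence covered, the windows of the 10 genes held 67.8 peaks and those of all protein-coding genes 22.5.

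**Figure D1:**
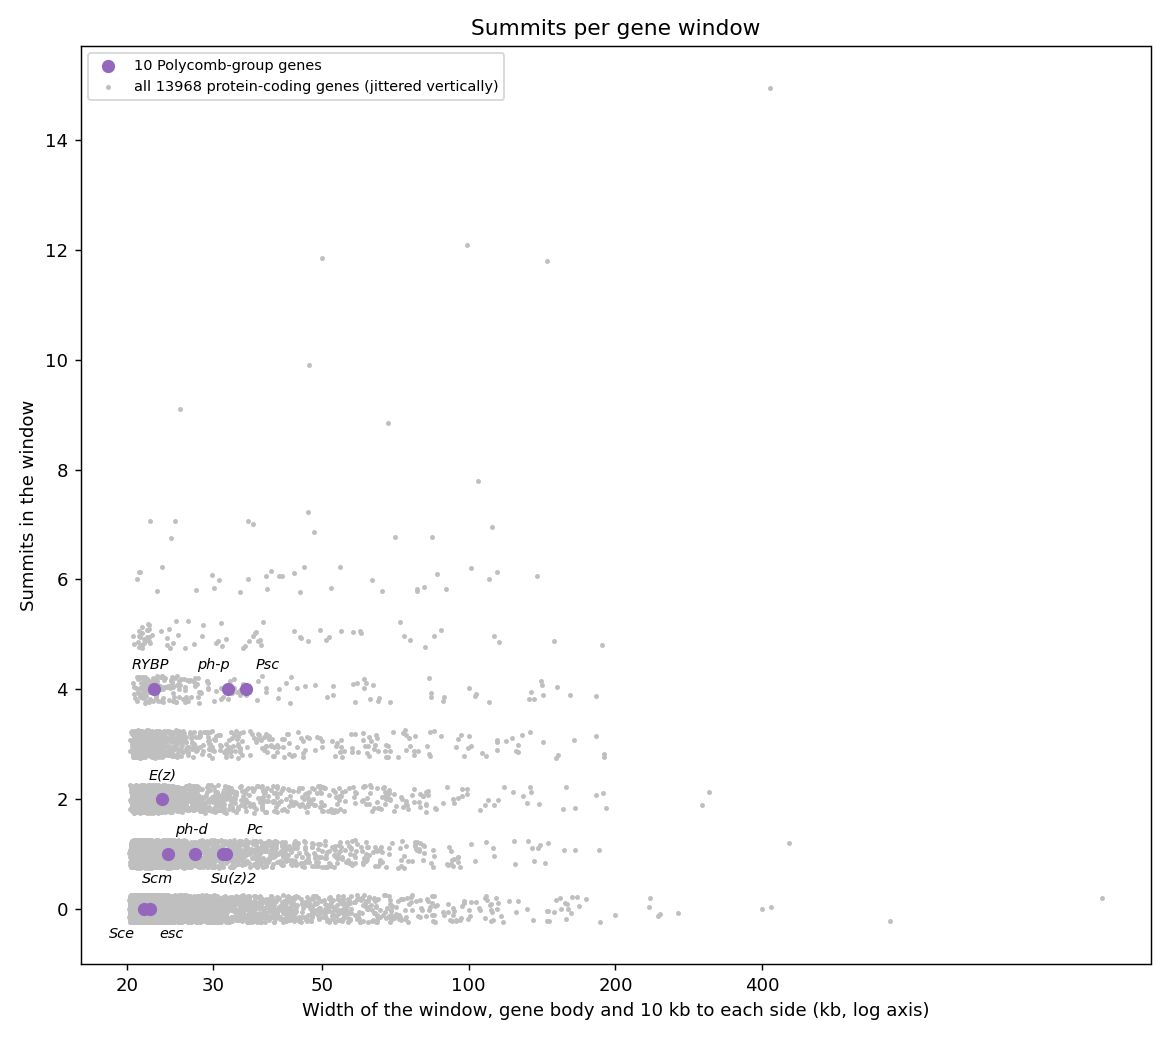
Number of peak summits (vertical axis) against the width of the gene window in kb (horizontal log axis) for the 10 Polycomb-group genes (purple, labelled) and all 13968 protein-coding genes (grey, shifted up or down at random within 0.25 for display). RYBP, ph-p and Psc hold 4 summits each, while Sce and esc hold none.

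The ph-p gene, which encodes a Polyhomeotic subunit of PRC1 with a SAM domain, held a pair of strong peaks close to its start sites. The gene (FBgn0004861) spans X 2126210 to 2138371 on the minus strand and has 3 distinct annotated start sites. The strongest peak, at X 2137217 to 2137485, had a signal of 1133 and rank 8, where replicate 1 gave 665 and replicate 2 gave 476. Its summit lay in an intron, 498 bp upstream of an internal start site. The other, at X 2137757 to 2138029, had a signal of 649.5 and rank 39, where replicate 1 gave 346 and replicate 2 gave 294. That summit lay in the 5′ UTR, 482 bp downstream of the first start site and 536 bp from the summit of the intron peak. A further peak, at X 2135171 to 2135500 in an intron, was much weaker. Its signal was 164.6, where replicate 1 gave 83.4 and replicate 2 gave 80.4. All 3 were in both replicate lists, and the order of the 3 was the same in each.

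The tandem copy ph-d encodes the other Polyhomeotic protein and had no peak in its gene body. The gene (FBgn0004860) spans X 2115727 to 2123286 on the minus strand, with 2924 bp between its start and the end of ph-p. The peak between the genes, at X 2123918 to 2124247, lay 797 bp upstream of ph-d. It had a signal of 150.1 and rank 799, where replicate 1 gave 114 and replicate 2 gave 55.5. Replicate 1 was higher by 1.04 on the log2 scale here, and the replicate summits lay 112 bp apart, the largest gap among the genes' shared peaks. Sequence copies bear on where reads of the ph genes can be placed. Of the 36-base words of ph-d, 32.5% occurred more than once in the genome, and all of these were also found in ph-p. In ph-p itself the share of repeated words was 32.2%, and 20.2% of its words were also found in ph-d. An annotated FB element took up 1446 bp, or 11.9%, of ph-p. None of the 36-base or 50-base words of the 17 peaks occurred elsewhere, the ph peaks included. Whether reads in copied stretches were kept by the authors was not tested.

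Pc encodes the chromodomain protein of PRC1 that binds methylated H3 lysine 27. Its window had 1 peak, which lay at another gene's start. The gene (FBgn0003042) spans 3L 21306138 to 21318020 on the minus strand. The peak, at 3L 21304471 to 21304659, had a signal of 494 and rank 81, where replicate 1 gave 206 and replicate 2 gave 294. Its summit was 90 bp from the start site of CG11309 and 13452 bp from that of Pc. Most of the annotated Pc gene is a roo retrotransposon, whose copy spans 9101 bp, or 76.6% of the gene. Likewise, 76.3% of the gene's 36-base words occurred more than once in the genome. How the authors placed reads in this stretch was not tested.

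Psc and Su(z)2 are neighbouring genes for related RING-finger proteins, of which Psc is a core subunit of PRC1. They start 15507 bp apart and point away from each other. Psc (FBgn0005624) spans 2R 12965997 to 12980994 on the minus strand, and Su(z)2 (FBgn0265623) spans 2R 12996501 to 13007911 on the plus strand. The sequence between their starts held a strong peak at 2R 12985104 to 12985330, with a signal of 727 and rank 30. It had 396 in replicate 1 and 331 in replicate 2. Its summit was 4214 bp upstream of Psc and 11293 bp from Su(z)2, just past the limit of 10 kb for the Su(z)2 window. An intron of Psc held a peak at 2R 12975451 to 12975780, with a signal of 208, 97.3 in replicate 1 and 104 in replicate 2. Beyond the 3′ end of Psc lay another at 2R 12958049 to 12958378, with a signal of 173, 98.7 in replicate 1 and 75.1 in replicate 2. The fourth summit of the Psc window, at 2R 12959103 to 12959432, had a signal of 80.9 and was in neither replicate list.

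The Su(z)2 window itself had a peak of signal 71.8 and rank 2278, at 2R 13008300 to 13008629. It lay 554 bp past the 3′ end of the gene, and it was in neither replicate list nor the conservative list. Its irreproducible discovery rate (IDR, a value that is lower the better a peak's rank recurs when ranked again) was 0.00973, just inside the limit of 0.01 that all listed peaks meet. In the longer ranked lists of the replicates its signals were 47.9 (IDR 0.0109) and 21.5 (IDR 0.427). What was ranked against what within 1 replicate is not stated, so these IDRs are not set against that of the list of both. At 20 kb to each side the Su(z)2 window took in the strong peak between the genes.

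Sce encodes the RING-finger ubiquitin ligase of PRC1 and had no listed peak. The gene (FBgn0003330) spans 3R 27680431 to 27682029, and the nearest listed peak lay 24970 bp from it. Its window did hold 33 peaks of the ranked list of both replicates, where the median was 32 for the 10 genes and 29 for all protein-coding genes. The lowest IDR among these was 0.258, at a signal of 30.7.

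The PRC2 genes E(z) and esc had no peak in their windows that both replicate lists held. E(z), which encodes the histone methyltransferase, lies at 3L 10634575 to 10638130 on the minus strand (FBgn0000629). A peak at 3L 10637861 to 10638190 had its summit 104 bp downstream of the gene start, with a signal of 156 and rank 752. Replicate 1 listed it at 120.2, and replicate 2 did not list it. In the ranked list of replicate 2 it had a signal of 29.97 and an IDR of 0.247. The gene Cnep1r2 starts on the opposite strand within the same peak, so the peak cannot be given to E(z) alone. A second summit, 7874 bp upstream of E(z) at 3L 10645839 to 10646168, had a signal of 72.97 and was in neither replicate list. It lay in an intron of CG32066, and the nearest start site was that of CG14153, 2476 bp away.

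For esc, the WD-repeat partner of E(z), no summit lay in the window. The gene (FBgn0000588) spans 2L 11827204 to 11829405. The nearest peak, at 2L 11816385 to 11816714, missed the limit by less than 1 kb, at 10654 bp from the gene. It had a signal of 179, where replicate 1 gave 80.6 and replicate 2 gave 95.5, and CycY had the nearest start site. Within the window the lowest IDR of a ranked peak was 0.185.

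Scm encodes a protein with MBT repeats and a SAM domain that associates with PRC1. Its window held 1 peak, with a signal of 85.1 and rank 1805, at 3R 9627101 to 9627430. The summit was 55 bp from the start site of CG8319 and 6093 bp from Scm (FBgn0003334, 3R 9633359 to 9637611). Replicate 1 listed the peak at 54.7 and held 1 further summit in the window, and replicate 2 listed neither.

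RYBP, a partner of Sce in variant PRC1 complexes, had the strongest peak of all 10 genes in the list of both replicates. This peak lay outside the gene. The gene (FBgn0034763) spans 2R 22670587 to 22673212 on the plus strand, and all 4 summits lay past its 3′ end. The strongest, at 2R 22678169 to 22678612, had a signal of 1196 and rank 7, where replicate 1 gave 502 and replicate 2 gave 682. By rank it was 18 in replicate 1 and 2 in replicate 2, where the intron peak of ph-p was 7 and 8. The order of these 2 peaks thus differed between the replicates. The 2 nearest summits to the strongest RYBP peak, at 2R 22676391 to 22676720 and 22676952 to 22677281, had signals of 176 and 128. Both were also in the replicate lists, at 114.5 and 73.5 in replicate 1 and at 74.3 and 45.5 in replicate 2. The last, at 2R 22673697 to 22674026, had a signal of 86.1 and was in neither replicate list. RYBP had the nearest protein-coding start site to all 4 summits, at 3097 to 7622 bp.

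**Figure D2:**
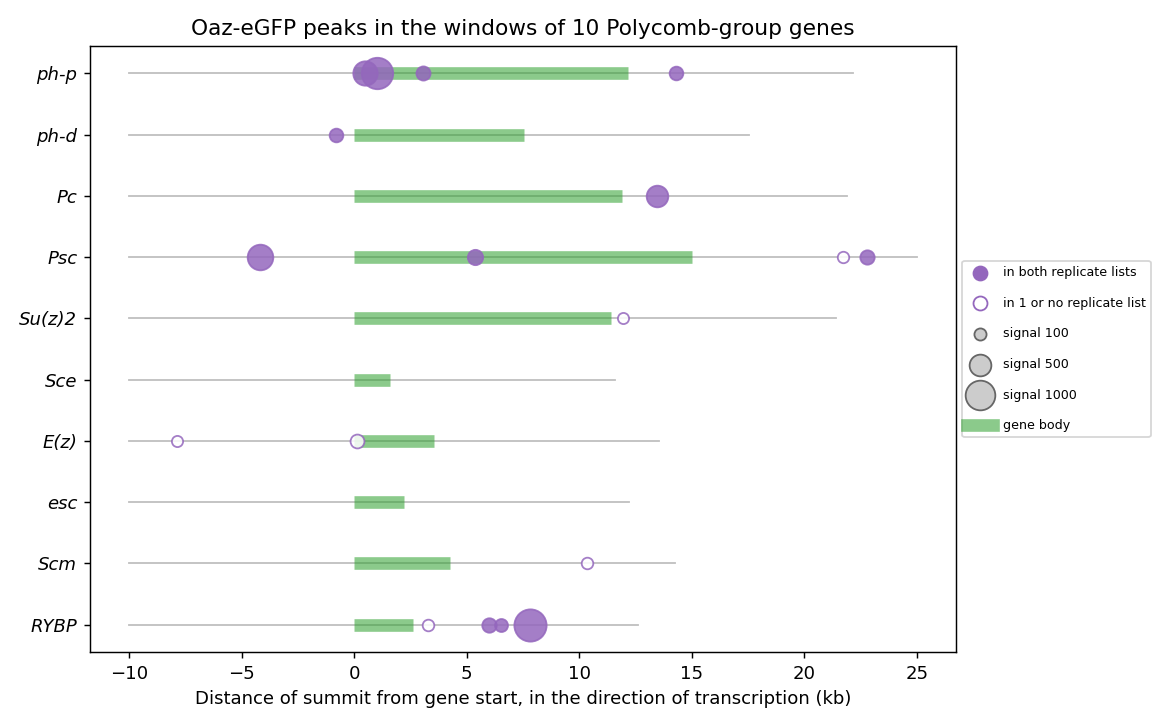
Each row is 1 of the 10 genes, drawn along the direction of transcription with the gene start at 0 kb (horizontal axis, distance in kb). The green bar is the gene body, the grey line the window of 10 kb to each side, and circles are peak summits with an area that grows with the signal, filled when both replicate lists hold the peak. The largest circles lie just inside ph-p, upstream of Psc and past the end of RYBP.

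A summit lay within 1000 bp of a start site of the gene at 3 of the 10, namely ph-p, ph-d and E(z), where 14.0% of protein-coding genes had one. Summits in the gene body were found at 3 of the 10, ph-p, Psc and E(z), against 8.50% of protein-coding genes. Of the 17 peaks, 12 were nearest to a start site of the gene whose window held them, and 5 to that of another gene (CG11309, CG8319, CG14153 and, for both peaks past the end of Psc, CG13321). By place, 10 summits lay between protein-coding genes, 6 in introns and 1 in a 5′ UTR. The same split of all arm peaks is not given here, so these counts only describe the 17. Summits over 2000 bp from any protein-coding start site made up 58.8% of the 17, against 33.4% of all arm peaks. The difference between these shares was not tested.

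Most of the genes' peaks recurred in the replicates, and 4 weak ones were in neither replicate list. Both replicate lists held 11 of the 17 peaks (64.7%), against 45.5% of all arm peaks. Of the other 6, the peaks at E(z) and CG8319 were in the list of replicate 1, and 4 were in neither. Those 4 had signals from 71.8 to 86.1, below the median of 103 over all arm peaks. The conservative list held 15 of the 17, and it had 2495 arm peaks where the list used here had 2772. Counted by gene, 5 of the 10 had a summit found in both replicate lists (ph-p, ph-d, Pc, Psc and RYBP), where 29.1% of protein-coding genes did. With the list of replicate 1 alone 7 of the 10 genes had a summit, where 37.4% of protein-coding genes did. With the list of replicate 2 alone 5 of the 10 did, against 35.6% of protein-coding genes, and E(z), esc, Sce, Scm and Su(z)2 had none there.

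**Figure D3:**
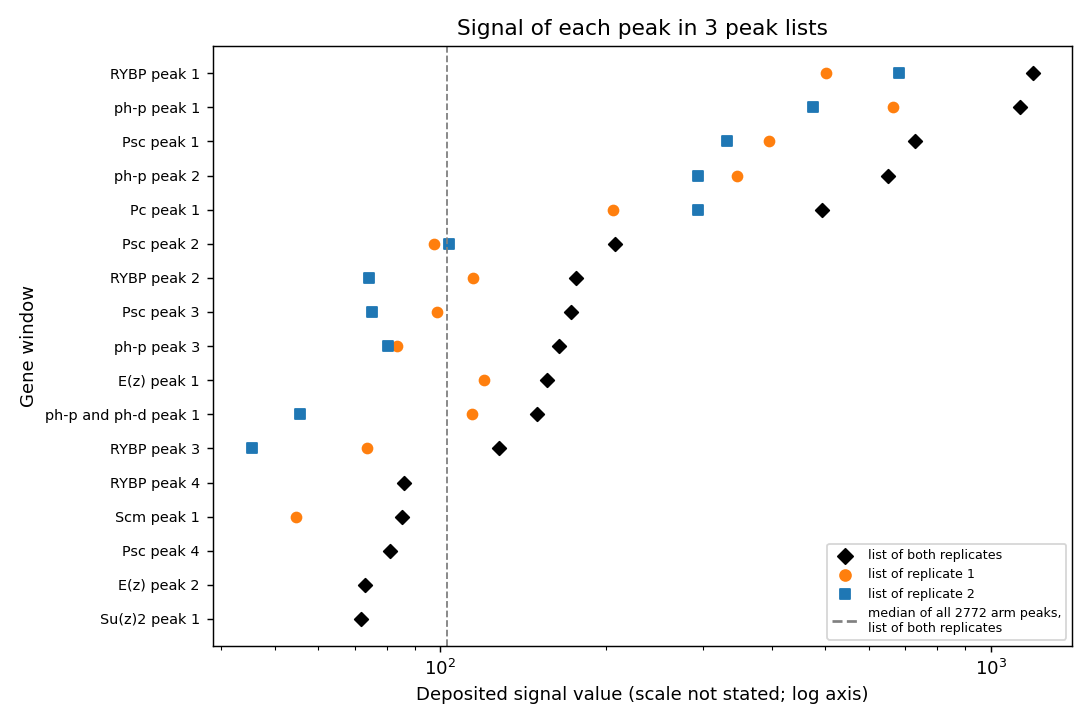
Deposited signal (horizontal log axis) of each of the 17 peaks, ordered from the strongest down and named by gene window, in the list of both replicates (black diamonds), of replicate 1 (orange circles) and of replicate 2 (blue squares). The dashed line is the median of all 2772 arm peaks in the list of both replicates, and 12 of the 17 black diamonds lie to its right.

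The signals of the 17 peaks ran from 71.8 to 1196, with a median of 164.6, against 103 for all arm peaks. Of the 17, 2 were among the 10 strongest listed peaks, 4 among the 50 strongest and 5 among the 100 strongest. The 5 strongest stood clear of the rest, with no signal between 208 and 494. These 5 were also the only ones of the 17 that were not 330 bp wide, a width that 87.1% of all arm peaks have. Width and signal went together over the whole list. The median signal of all arm peaks 330 bp wide was 93.5, and that of arm peaks of another width was 334.

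Of the 11 shared peaks, the strongest of Pc and RYBP lay farthest from the usual ratio between the replicates. Over the 1260 arm peaks in both replicate lists, the log2 ratio of the signals of replicate 1 to replicate 2 had a median of 0.36 and an SD of 0.36. At the Pc window peak the ratio was -0.51, and 7 of the 1260 peaks were lower. The RYBP peak had a ratio of -0.44, with 13 lower. Replicate 2 was thus higher at both of these, and also at the Psc intron peak (-0.09), while 15.95% of the 1260 peaks were higher in replicate 2. The strongest peaks of ph-p and Psc, at 0.48 and 0.26, lay within 1 SD of the median. With 2 replicates, a difference between them at a single peak cannot be tested.

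**Figure D4:**
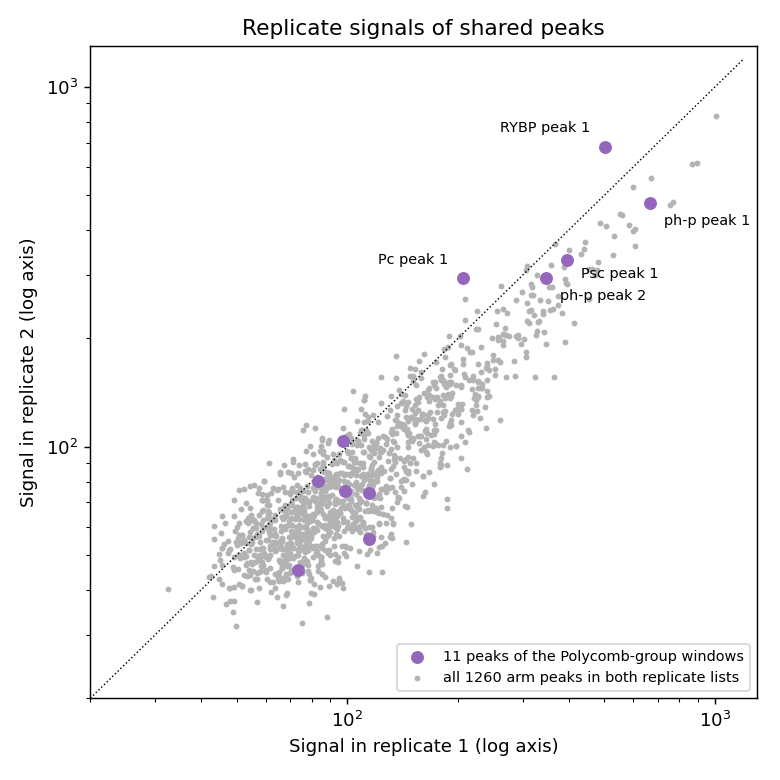
Signal in replicate 1 (horizontal log axis) against signal in replicate 2 (vertical log axis) for the 11 peaks of the Polycomb-group windows that both replicate lists hold (purple, strongest 5 labelled) and all 1260 such arm peaks (grey). The dotted line marks equal signals, and the strongest peaks of RYBP and Pc lie above it.

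By replicate signals, the promoter peaks most like the intron peak of ph-p were sought among 1078 other protein-coding genes with a peak in both replicate lists within 1000 bp of a start site. The measure was the sum of the absolute log2 differences in the 2 replicates. The closest were Ugalt and eIF2Bbeta, which share 1 peak of 754 in replicate 1 and 471 in replicate 2 (sum 0.20), and HmgZ with 766 and 480 (sum 0.22).

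The sequence at the summits was searched on both strands, with 100 bases to each side of the summit, for 7 short motifs. ACAGTG was in 4 of the 17 windows (23.5%), against 22.2% of all arm summits and 8.64% of sequence 700 bp to either side of them. Of the 34 flanks of the 17 peaks, 5 held it. The 4 were the 5′ UTR peak of ph-p, 1 of the weak peaks past Psc, the peak past Su(z)2 and the upstream peak of E(z). In the last of these its centre lay 9.5 bp from the summit. All but the ph-p peak were in neither replicate list, and the count was 2 in the conservative list, 1 at an IDR of 0.001 or less, 1 in the list of replicate 1 and 2 in the list of replicate 2. The intron peak of ph-p held none of the 7 motifs. TATAAA was in 8 of the 17 (47.1%), among them 3 of the 5 strongest, against 35.3% of all arm summits. It was in 4 of the 34 flanks of the 17 peaks, and in 20.6% of the flanks of all arm summits. The other motif rich in A and T was AAAATA, found in 11 of the 17 (64.7%), among them 2 of the 5 strongest, against 55.2% of all arm summits. Of the 34 flanks 9 held AAAATA, against 33.5% of the flanks of all arm summits. Matches to these last motifs can overlap.

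Letters of 2 sites known from Polycomb response elements were also counted. GCCAT, the core of the site of the DNA-binding Polycomb protein Pho, was in 4 of the 17 windows (23.5%), against 28.9% of all arm summits. The flanks held it in 8 of 34 for these peaks, and in 34.3% for all arm summits, more often than the summits. The upstream peak of E(z) held it 3 times. GAGAG, found in sites of GAGA factor, was in 0 of 17, against 21.2% of all arm summits, while 14 of the 34 flanks of these peaks held it, against 23.8% of the flanks of all arm summits. The promoter elements TATCGATA and GGTCACACT were in 0 of 17, against 2.78% and 1.01% of all arm summits. A window without the letters says nothing about the factor. The median content of G and C was 31.8% in the 17 windows and 35.3% in those of all arm summits. It ran from 23.9% at the start of E(z) to 59.2% at a peak past RYBP.

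A list of 22 other Polycomb-group genes, among them DNA-binding recruiters and further subunits of the complexes, gave 13 with a summit in the window, where 47.9% of protein-coding genes had one. Of the 22, 8 had a summit found in both replicate lists, against 29.1% of protein-coding genes, and 5 had one within 1000 bp of a start site, against 14.0%. A summit lay in the body of 3 of these genes, against 8.50% of protein-coding genes. The windows of 2, crm and caly, held 4 or more summits (2.41% of protein-coding genes), and those of 2 held a peak among the 100 strongest (3.41%). The windows held 25 peaks with a median signal of 105, and 4 of the 25 were nearest to a start site of a gene on the list. The strongest lay at the starts of neighbours. Caf1-55, a histone-binding PRC2 subunit, had in its window the peak of signal 1127 that is 128 bp from the start of mRpS10, where replicate 1 gave 600.04 and replicate 2 gave 528. For phol, which encodes a relative of Pho, the peak of signal 586 was 114 bp from the start of CG3552.

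Closer to their own start sites were the peaks of Su(z)12 and Dsp1. Su(z)12 encodes a PRC2 subunit, and its peak at 3L 19923269 to 19923362 was 179 bp from its start site, in the 5′ UTR. That peak had a signal of 212. Replicate 1 did not list it, and replicate 2 listed it at 96.3. Dsp1, a high-mobility-group protein, had a peak of signal 197 at 602 bp, which lay in an intron of CG9921, whose start site was 590 bp away. The windows of crm and Pcl had peaks of 270.2 and 184, nearest to the starts of Syx4 (184 bp) and pAbp (506 bp). The windows of escl, Jarid2, pho, sxc, Kdm2, E(Pc), corto, mxc and l(3)73Ah held no summit.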

How the data were processed

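Oaz-eGFP was mapped by the authors in 2 biological replicates of 1 group, after sonication to 200 to 800 bp, per the labels. The deposited lists came from alignments of both replicates, or of 1, and of a control on dm6, per the text deposited with the samples. Neither aligner nor peak caller is named here, being not given in the sources used. There were 8 lists, of which 4 were cut at a threshold and 4 were ranked. Each peak has the authors' deposited signal value, of unstated scale, and the deposited summit position. The −log10 of the global IDR is deposited in the ranked lists. Of the per-library columns in the ranked lists, 8 were not used. The longer thresholded list of both replicates (2846 peaks, 2772 on arms) was used, beside the replicate lists of 1833 and 1680 peaks.

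Genes and transcription start sites came from Ensembl release 115, and sequence from the RefSeq Release 6 genome, whose arms held every arm peak. Peaks were in a replicate when intervals shared 1 bp or more. Repeated words of 36 and 50 bases were counted over the whole genome, both strands. All 22 other Polycomb-group genes were matched, 1 by a synonym. The named genes were the 10, the 6 others with the strongest peaks, the hosts and nearest genes, and the 3 most like ph-p. Cnep1r2, roo, the FB element, caly and the list genes without a summit were named after the values were seen. The members and lists were chosen with earlier results of these data known, so no test was made. Peak sequence on arm 2R and in UTRs was not shown. The counting was tested on simulated data. Alternatives changed the list, the IDR limit, the window, the distance to a start site, the overlap and the motif window. Software was Python 3.11.15, numpy 2.4.6, pandas 2.3.3 and matplotlib 3.10.9.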

Additional observations from a re-analysis of the deposited data

How the results depend on the processing

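Of 65 recalculations under other settings, 49 kept a value within its limits and 16 moved it. A count was called moved when it changed by a factor of more than 1.5. The median signal was called moved when it changed by more than 7.53, the SD of its values in the 2 replicate lists. This limit is narrower in proportion than that for counts, so the 2 kinds of result cannot be compared by this tally. With 1 replicate's list in place of that of both, 5 to 7 of the 10 genes had a summit (35.6% to 37.4% of all protein-coding genes), with 11 to 14 peaks, a median signal of 104 to 114 and 1 to 2 windows with ACAGTG. The signal of such a list is on its own scale. With the gene body in place of the window, 3 of the 10 genes, 3 of the 22 other Polycomb-group genes and 1187 of all protein-coding genes had a summit, and the 5 peaks left had a median signal of 208. The conservative list gave a median signal of 173 and 2 windows with ACAGTG. At an IDR of 0.001 or less the median signal was 192, 1 window held ACAGTG and 4174 protein-coding genes (29.9%) had a summit, as did 6 of the 10. These settings keep fewer peaks by construction.

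No paired analysis was possible because there was 1 group and no test. Read depth was not analysed here, so weak peaks and missing ones cannot be set against it. The peaks at Su(z)2 and upstream of E(z) were absent from the conservative list.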
